A study of Caenorhabditis elegans with 2 samples.

Results

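The genes examined time larval development: daf-12, lin-14, lin-28, lin-29, lin-41, lin-42 and hbl-1, which are 7 of the 19973 protein-coding genes in the WBcel235 gene models used. They were chosen by name as genes of the developmental timing pathway, and the set was selected on earlier results of these data, in which daf-12 had a joint-list region by its signal. For each gene, every ranked region was taken whose summit, the position of highest signal, fell between 1000 bp upstream of the gene's 5′ end and its 3′ end. This gave 172 regions out of the 118176 in the joint ranking, all of them 296 bp wide. The signals and list memberships given for these genes are descriptions and carry no test, since those values were part of the choice.

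The regions came from chromatin immunoprecipitation of whole Caenorhabditis elegans in L4, at an age of 66 hours, after bleaching and L1 arrest without food. All animals were of strain OP719, which carries the integrated transgene wgIs719, a fusion of tag-97 to TY1, EGFP and 3xFLAG tags together with unc-119(+), in an unc-119 (tm4063) background, and an antibody to GFP was used. The labels also name svh-5 as the gene targeted by the insertion, and the gene models used hold no gene called tag-97, so which annotated gene is fused was not settled here. There were 2 biological replicates of this 1 group, and untagged or untreated animals were not analysed here. Nothing in the labels gives the pattern in which the fusion is expressed, and chromatin of all tissues was pooled, so a region cannot be assigned to a cell type.

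The heterochronic genes set the order of larval fates in the worm, above all in the seam cells of the hypodermis, by passing from early-acting to late-acting regulators under the control of microRNAs. Mutations in them make cells repeat or skip the divisions of a larval stage. DAF-12, a nuclear receptor bound by steroid hormones called dafachronic acids, ties this sequence to the choice between reproductive growth and the dormant dauer larva. LIN-14 is a nuclear DNA-binding protein that specifies the earliest larval fates, LIN-28 is an RNA-binding protein, and HBL-1 is a zinc finger factor related to Hunchback of Drosophila. LIN-41, an RNA-binding TRIM-NHL protein, holds back LIN-29, the zinc finger factor of the larval-to-adult switch. LIN-42 is related to the Period proteins of the circadian clock and acts on the rhythm of the larval stages.

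Among the 7 genes, daf-12 and lin-14 carried all the regions found in any thresholded list, and they were in different lists. The 3 regions of daf-12 were in the joint list and 1 of them was also in the list of replicate 2. The 2 regions of lin-14 in the conservative list, which comes from ranking the replicates against each other, were absent from the joint list, and 3 lin-14 regions were in the list of replicate 1. The sequences of the regions in the joint and conservative lists are given first, on the plus strand of ce11 read from the RefSeq copy of WBcel235. They are shown because they are the stretches that the timing genes contribute to those lists. The intronic lin-14 regions in the list of replicate 1 have other bounds and are not printed. Capitals mark a match on either strand to GTACAC, to the word GGCCTA or to the word CTAGGC. These words, and the further words GGCCAC and CTGCGC, had been picked out earlier in the joint list of these same data.
daf-12 region in intron, chrX:10637094-10637389: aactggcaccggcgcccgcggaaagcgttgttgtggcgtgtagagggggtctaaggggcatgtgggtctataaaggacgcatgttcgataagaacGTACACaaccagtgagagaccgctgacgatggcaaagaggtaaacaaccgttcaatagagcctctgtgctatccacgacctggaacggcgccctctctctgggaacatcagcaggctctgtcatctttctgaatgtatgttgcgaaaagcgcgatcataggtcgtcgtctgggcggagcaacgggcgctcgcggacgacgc
daf-12 region upstream, chrX:10635454-10635749: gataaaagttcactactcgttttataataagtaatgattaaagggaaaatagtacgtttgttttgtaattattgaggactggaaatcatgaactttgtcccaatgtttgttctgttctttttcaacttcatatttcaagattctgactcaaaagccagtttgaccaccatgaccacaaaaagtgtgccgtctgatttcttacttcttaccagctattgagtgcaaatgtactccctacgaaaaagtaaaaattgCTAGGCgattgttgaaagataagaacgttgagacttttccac
daf-12 region in later intron, chrX:10645398-10645693: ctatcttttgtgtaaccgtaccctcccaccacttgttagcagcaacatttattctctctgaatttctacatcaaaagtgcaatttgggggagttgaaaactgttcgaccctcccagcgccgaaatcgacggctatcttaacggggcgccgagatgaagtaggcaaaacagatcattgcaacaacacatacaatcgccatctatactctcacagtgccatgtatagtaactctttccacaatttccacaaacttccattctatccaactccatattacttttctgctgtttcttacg
lin-14 region in coding exon, chrX:11481346-11481641: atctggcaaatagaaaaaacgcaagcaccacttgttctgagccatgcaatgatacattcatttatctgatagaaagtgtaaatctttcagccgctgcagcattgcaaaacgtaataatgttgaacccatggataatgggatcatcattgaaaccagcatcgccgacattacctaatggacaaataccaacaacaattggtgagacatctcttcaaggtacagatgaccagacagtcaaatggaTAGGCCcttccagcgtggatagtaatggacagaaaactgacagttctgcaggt
lin-14 region in intron, chrX:11474505-11474800: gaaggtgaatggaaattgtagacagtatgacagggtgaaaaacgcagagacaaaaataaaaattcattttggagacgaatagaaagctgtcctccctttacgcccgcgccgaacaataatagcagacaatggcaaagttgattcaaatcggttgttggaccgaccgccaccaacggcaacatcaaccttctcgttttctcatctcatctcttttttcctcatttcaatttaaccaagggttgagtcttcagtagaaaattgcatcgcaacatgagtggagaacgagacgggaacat

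Of the 5 sequences, 3 held a single word each: GTACAC in the strongest daf-12 region, CTAGGC in the upstream daf-12 region and GGCCTA, on the minus strand, in the coding exon of lin-14. The shares of all ranked regions that hold these words on either strand were 7.44% for GTACAC, 5.23% for CTAGGC and 5.79% for GGCCTA, against 13.1%, 11.8% and 12.5% of the 321 joint regions. No region of the 5 held GGCCAC (5.77% of ranked and 14.3% of joint regions) or CTGCGC (3.93% and 13.1%). GGCCTA and CTAGGC can overlap each other, so their shares are not additive. Base composition varied among the sequences. The strongest daf-12 region was 56.4% G or C, at the 99.5th percentile of ranked regions, whose median was 37.5%. The upstream daf-12 region was 34.5% G or C and the 3 others lay between 41.6% and 42.9%, close to the median of 42.6% in the joint list. Each of the 5 aligned to 1 place in the genome, at 100 bp or more and 80% identity or more.

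The daf-12 gene (WBGene00000908, chrX:10635908-10666875, plus strand) is 31.0 kb long, has 10 annotated transcripts and held 43 ranked regions. Its strongest region, in an intron with a summit 1334 bp downstream of the 5′ end, had a joint signal of 90.3, with 21.9 in replicate 1 and 52.3 in replicate 2. The region 306 bp upstream of the 5′ end had a joint signal of 69.8, with 21.9 and 44.9 in the replicates. The third, 9638 bp into the gene and 1106 bp downstream of an internal transcript start, had 76.0, with 20.04 and 43.7. All 3 were higher in replicate 2, by 2.05 to 2.39 times, where the median ratio of replicate 2 to replicate 1 was 1.13 over all regions ranked between the replicates and 1.06 over 320 joint regions. Ratios of at least 2 were found at 41 of those 320 regions.

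Placed on each replicate's own scale, the 3 daf-12 regions were at the 99.8th percentile or above in replicate 2 and between the 90.6th and 93.7th percentiles in replicate 1. Their irreproducible discovery rate (IDR), a measure of how poorly a region keeps its rank between the 2 inputs compared, was between 0.00219 and 0.00444 in the joint ranking and between 0.0367 and 0.0668 in the ranking of the replicates. The joint and conservative lists end at 0.01, so these regions fell inside the joint list and outside the conservative one. The next daf-12 region, in the intron 22471 bp into the gene and 960 bp upstream of an internal transcript start, lay just outside both, with a joint signal of 62.2 and rates of 0.0190 and 0.0314. Its balance was the opposite, at 54.0 in replicate 1 and 23.5 in replicate 2. Over the 35 daf-12 regions with both values, 16 were higher in replicate 2 and the median ratio was 0.926, so the listed regions did not share the balance of the gene as a whole.

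By joint signal, the 3 daf-12 regions ranked 73, 131 and 189 among the 321 of the joint list. The single daf-12 region in the list of replicate 2 ranked 51 of 71 by that replicate's own signal. The gene was 1 of 258 protein-coding genes with a joint-list region in the same window, 1.29% of all. Among the 198 genes of at least 20 kb that share was 8.08%, and daf-12 is one of these. As a share of regions, the joint list takes in 0.272% of the joint ranking. Only 3 protein-coding genes had at least 3 joint regions in the window: daf-12, unc-58, a potassium channel gene in the same part of X, and the forkhead gene fkh-7 on chromosome IV. The latter pair were named after their values were seen. The list of replicate 2 reached 0.305% of protein-coding genes. With the joint ranking taken to an IDR of 0.05, 3 of the 7 genes had a region (daf-12, lin-14 and lin-42), where 4.3% of protein-coding genes did. At 0.001 none of the 7 did, where 0.275% of protein-coding genes did.

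**Figure D1:**
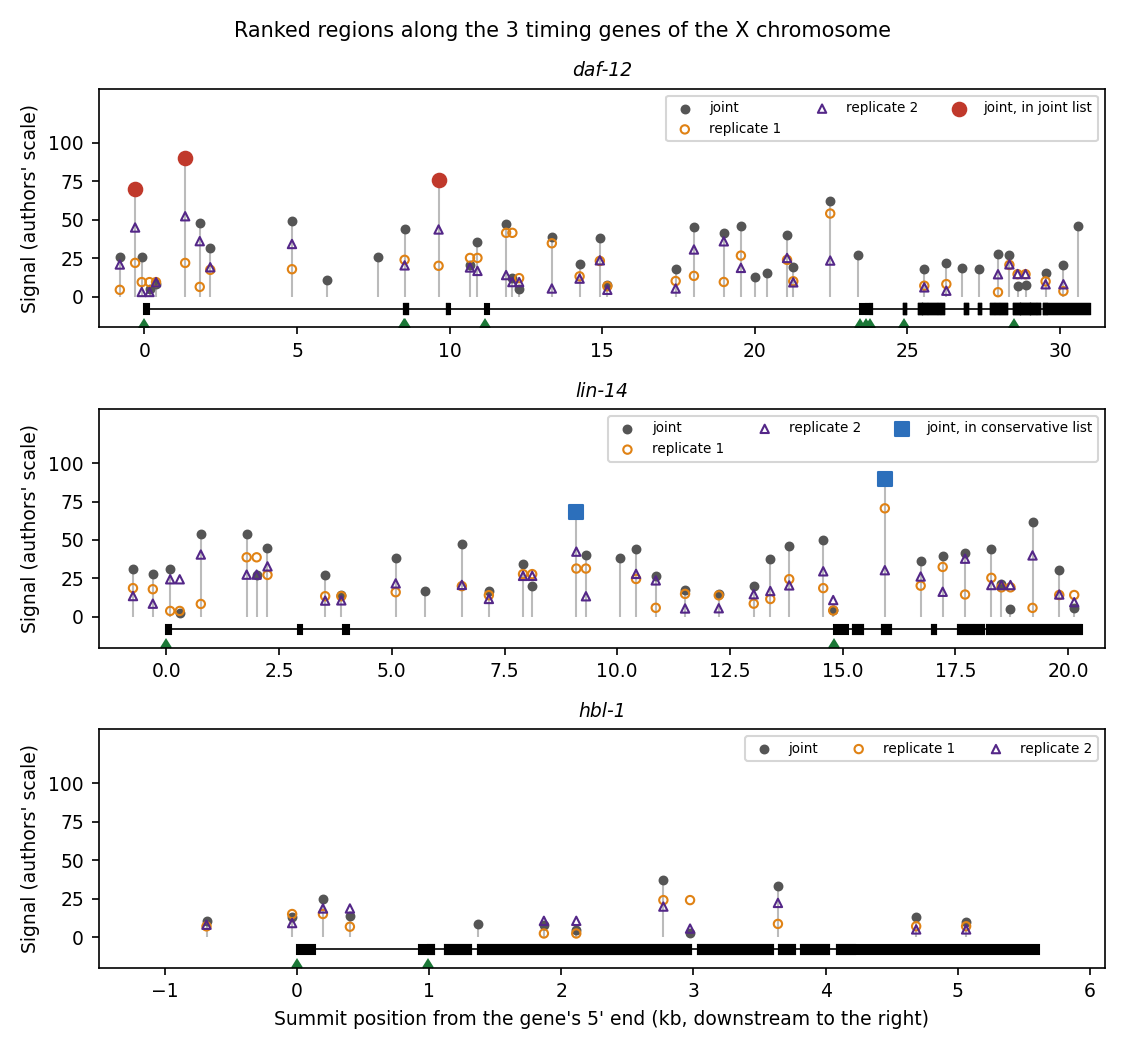
Joint signal and the signals of the matched regions in replicates 1 and 2 at each summit along daf-12, lin-14 and hbl-1, against distance from the 5′ end in kb. Black boxes are exons of any transcript and green marks are transcript starts. The listed regions of daf-12 stand at 69.8 to 90.3 with replicate 2 above replicate 1, the strongest lin-14 region stands at 89.4 with replicate 1 above replicate 2, and no hbl-1 region exceeds 37.0.

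The lin-14 gene (WBGene00003003, chrX:11465560-11485871, plus strand) is 20.3 kb long with 2 transcripts and held 38 ranked regions. Its strongest region lay in a coding exon 15934 bp into the gene, 1133 bp downstream of the start of the shorter transcript. It had a joint signal of 89.4, with 70.6 in replicate 1 and 30.3 in replicate 2. The second, in the long intron 9093 bp into the gene, had a joint signal of 67.9, with 31.4 and 42.4. Their rates were 0.00630 and 0.00706 between the replicates but 0.0109 and 0.0237 in the joint ranking, the former just past the value of 0.01 at which the joint list ends. The strongest lin-14 region was therefore as high in joint signal as the strongest of daf-12, yet only the latter was in the joint list.

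The list of replicate 1 held the coding-exon region of lin-14 (signal 70.6, rank 20 of 70) and 2 intronic ones. These lay 1918 bp (38.7, rank 63) and 9322 bp (31.4, rank 66) into the gene. The region 1782 bp into the gene that matched the former of these had a joint signal of 54.1, with 38.7 and 27.4 in the replicates. Its summit also falls in the window of T25C12.7, an annotated noncoding RNA gene. A region in the 3′ UTR, the third in joint signal at 61.5, had 5.83 in replicate 1 and 39.9 in replicate 2 and rates of 0.537 and 0.681. In the conservative list the 2 lin-14 regions ranked 75 and 142 of 182. The conservative list reached 0.791% of protein-coding genes and the list of replicate 1 reached 0.275%. Of the 182 conservative regions, 26 were missing from the joint list, as those of lin-14 were, and 165 joint regions were missing from the conservative list, as those of daf-12 were.

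**Figure D2:**
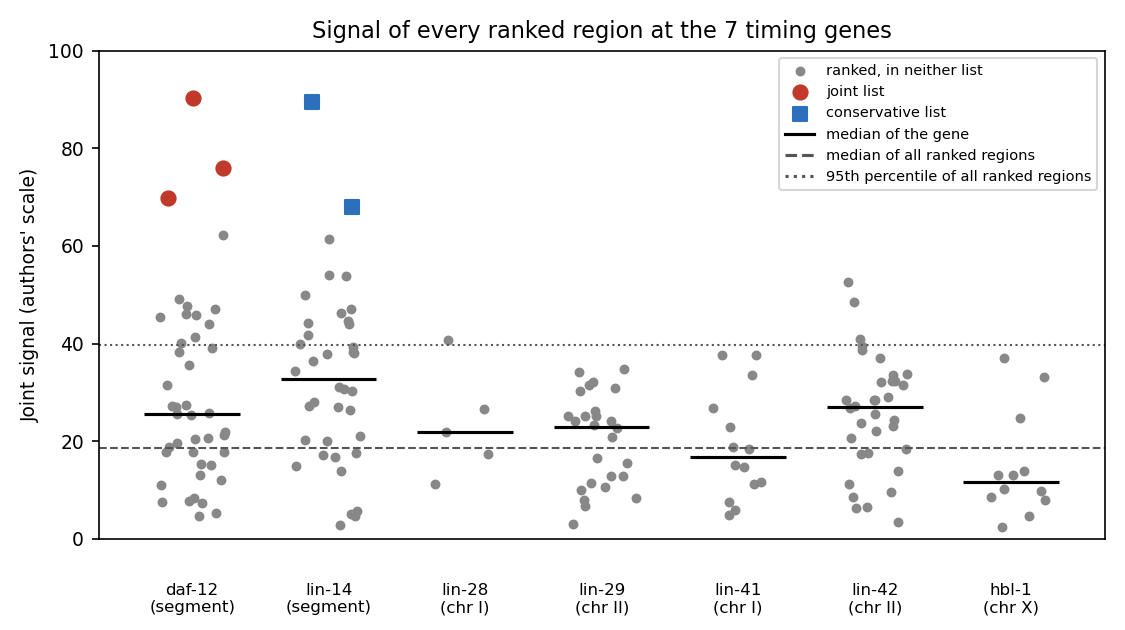
Joint signal of each of the 172 ranked regions at the 7 genes, with the median of each gene as a bar and the median (18.6) and 95th percentile (39.7) of all ranked regions as lines. Regions of the joint and conservative lists are coloured and lie at daf-12 and lin-14, the genes inside the segment of raised signal, where 26 regions exceed the 95th percentile, against 4 at the other 5 genes.

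Both genes lie in a part of X where ranked regions as a whole had higher signal. In bins of 100 kb, the median signal of regions outside the joint list was raised along chrX from 9.1 to 11.6 Mb, and the segment was set from those medians. It was between 21.2 and 29.7 in the 25 bins of the segment and between 14.9 and 22.1 in the other 153 bins of X. Unlisted regions had a median of 25.3 inside it, 18.6 over the remainder of X and 18.5 over the autosomes. Both replicates showed the step in their matched signals, taken here over all ranked regions with a match, listed ones included. The segment was set from the joint signal of these same replicates, so they are not a separate check of it. In replicate 1 the median signal was 14.8 inside, 10.4 over the remainder of X and 10.3 over autosomes, and in replicate 2 the same medians were 17.5, 11.9 and 11.9. The segment held 91 of the 321 joint regions, 44 of the 182 conservative ones, 11 of the 70 of replicate 1 and 15 of the 71 of replicate 2.

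Against this background daf-12 was ordinary in its general level and lin-14 somewhat above it. The median joint signal over the regions of daf-12 was 25.5, the 41st highest of the 60 genes of the segment with at least 10 ranked regions, whose median was 27.7. That of lin-14 was 32.7, the 8th highest of the 60. Over the whole genome, among 2244 genes with at least 10 ranked regions, the same medians stood at the 94.5th and 99.6th percentiles. Signals above the genome-wide 95th percentile of 39.7 were found at 13 of 43 daf-12 regions (30.2%) and 13 of 38 lin-14 regions (34.2%), against 22.9% of all 2817 ranked regions in the segment. By rank within those 2817, the listed daf-12 regions were 10th, 28th and 55th, and the 2 conservative lin-14 regions 11th and 63rd.

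Listed regions were also more frequent among genes of the segment than over the genome. Of its 393 protein-coding genes, 63 had a joint-list region in the window (16%), 31 a conservative one (7.89%), 5 one of replicate 1 (1.27%) and 10 one of replicate 2 (2.54%). Joint regions of the segment had a median replicate ratio of 1.25 over the 90 with both values, and 19 of those 90 had a ratio of at least 2, as the 3 daf-12 regions did. The part of the raised background in the regions at daf-12 and lin-14 was not tested.

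**Figure D3:**
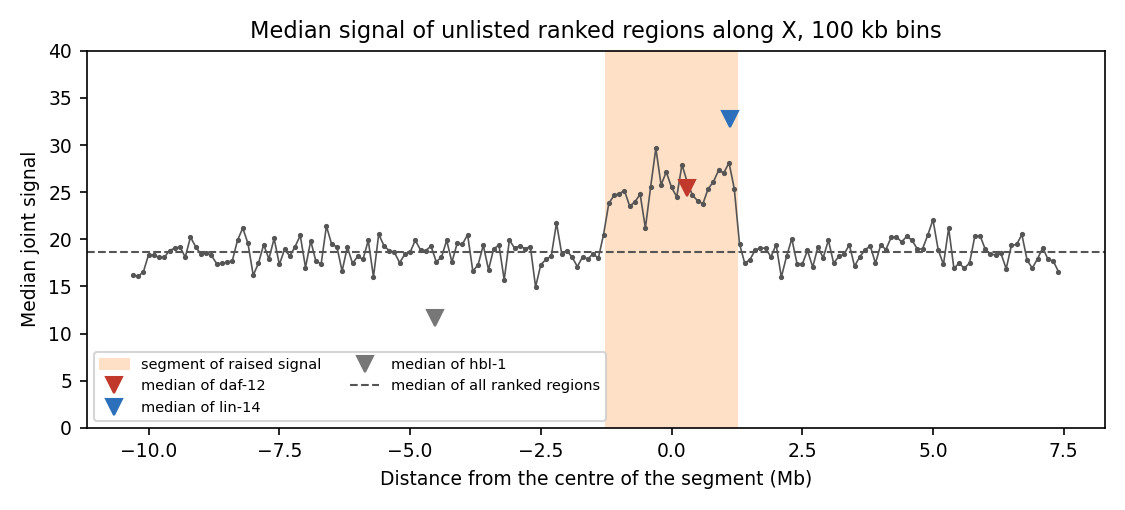
Median joint signal of unlisted ranked regions in 100 kb bins along X, against distance in Mb from the centre of the raised segment (shaded), with the medians of daf-12 (25.5), lin-14 (32.7) and hbl-1 (11.6) as triangles. The bins of the segment lie between 21.2 and 29.7 and the dashed line marks the median of all ranked regions, 18.6.

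In daf-12 the 3 listed regions lay from 306 bp upstream to 9638 bp downstream of the 5′ end. The stretch from the start of the window to 10 kb, a limit just past the last of them, held 13 of the 43 ranked regions. It also held 6 of the 13 above the 95th percentile, and the last of those 13 was 30.6 kb downstream, in the 3′ UTR. In lin-14, 6 of the 13 regions above that percentile lay in the same stretch, with 18 of 38 ranked regions. The 31 intronic regions of daf-12 had a median signal of 26.9 and the 6 in coding exons 16.5. In lin-14 the order was the other way, with 36.5 in 27 intronic regions and 43.0 in 4 coding ones.

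The replicates agreed on few of the strong regions. Of 12 daf-12 regions above the 95th percentile of the joint ranking that had a matched region in both replicates, 1 was above that percentile in both, 4 in replicate 1 alone and 7 in replicate 2 alone. For lin-14, 5 of 13 were above it in both, 3 in replicate 1 alone, 4 in replicate 2 alone and 1 in neither. Over all 5824 such regions of the genome, 13.7% were above it in both, 54.6% in exactly 1 and 31.7% in neither. Across regions, which share libraries and are not replicates, the Spearman correlation of the replicate signals was 0.35 at daf-12 (35 regions), 0.29 at lin-14 (36), 0.45 at lin-42 (32), 0.03 at lin-29 (26), 0.17 at lin-41 (12) and 0.09 at hbl-1 (11), and 0.13 over the 100728 regions ranked in both ways. Neighbouring joint regions can be matched to the same region of a replicate, so these points are not all separate measurements. In replicate 1 this happened for 9 of the 35 daf-12 regions, 14 of the 36 of lin-14 and 4 of the 32 of lin-42. It also happened there for 6 of the 26 of lin-29, 2 of the 12 of lin-41 and 8 of the 11 of hbl-1. In replicate 2 the counts were 8, 9, 10, 6, 4 and 6 in the same order of genes.

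**Figure D4:**
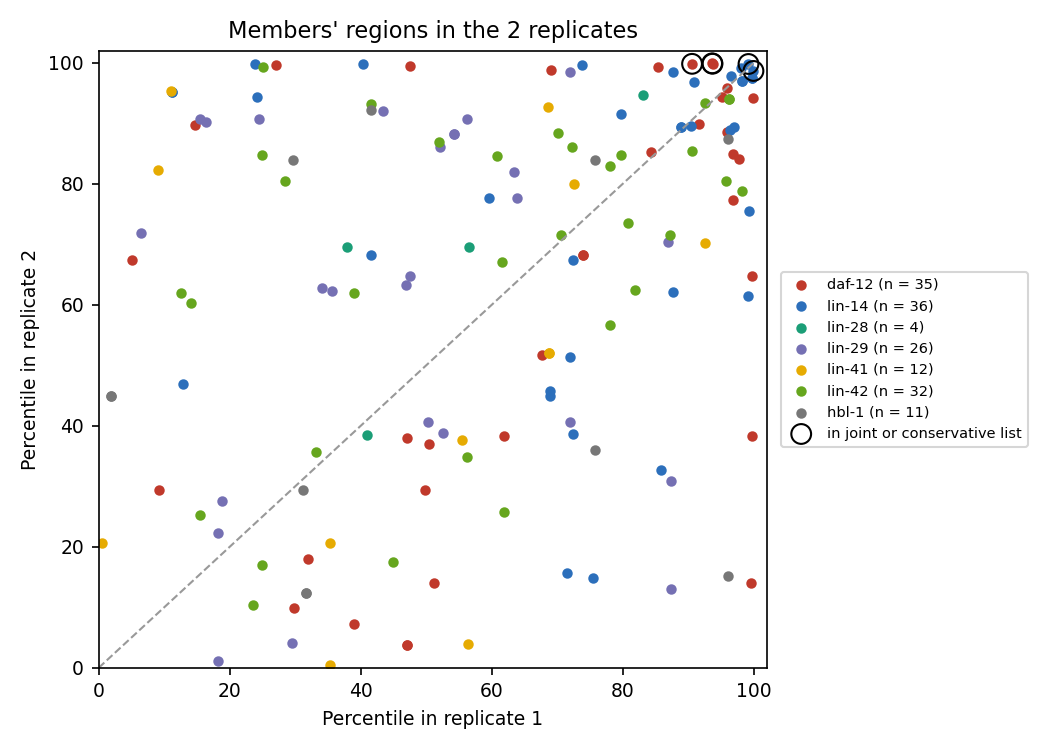
Percentile of each member region's matched signal in replicate 1 against replicate 2, among all regions ranked between the replicates; colours are genes and circles mark regions in the joint or conservative list. The circled daf-12 regions lie above the 99.8th percentile in replicate 2 and between the 90.6th and 93.7th in replicate 1, and the circled lin-14 regions are above the 98.6th in both.

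The third timing gene of X, hbl-1 (WBGene00001824, chrX:5822142-5827755, plus strand), lies outside the segment and had the lowest median of the 7 genes. Its 12 ranked regions ran from 2.38 to 37.0 with a median of 11.6, and 3 of them exceeded the median of 18.6 over all ranked regions. Among genes with at least 10 ranked regions its median was at the 2.58th percentile. The strongest region, in a coding exon 2773 bp into the gene, had a joint signal of 37.0, with 24.0 in replicate 1 and 19.8 in replicate 2. The next, in an intron, had 33.2, with 8.56 and 22.2. Their rates in the joint ranking were 0.346 and 0.272, far above the threshold.

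The late-acting gene lin-29 (WBGene00003015, chrII:11917642-11935343, minus strand, 17.7 kb) had 26 ranked regions with signals from 2.97 to 34.9 and a median of 22.96, and none was in a list. Its 2 strongest regions, both intronic, held many copies of TTAGGC, the repeat unit of C. elegans telomeres. The region 2912 bp into the gene, at chrII:11932283-11932578, is shown on the plus strand because it is the strongest of lin-29, with each TTAGGC in capitals.
lin-29 region in intron: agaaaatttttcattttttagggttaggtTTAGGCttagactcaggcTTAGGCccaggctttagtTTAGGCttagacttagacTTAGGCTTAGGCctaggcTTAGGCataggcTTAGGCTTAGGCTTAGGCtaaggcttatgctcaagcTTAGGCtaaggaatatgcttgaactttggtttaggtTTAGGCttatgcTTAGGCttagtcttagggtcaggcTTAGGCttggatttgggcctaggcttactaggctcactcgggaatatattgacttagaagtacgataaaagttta

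This sequence held TTAGGC 13 times, and the second lin-29 region, 11258 bp into the gene, held it 17 times. They gave 674 and 635 alignments in the genome at 100 bp or more and 80% identity or more, and each held both GGCCTA and CTAGGC. The strongest region had a joint signal of 34.9, with 14.1 in replicate 1 and 30.0 in replicate 2. The second had 34.2, with 5.93 and 21.3. In all, 5 lin-29 regions, each intronic, held TTAGGC or its complement at least 5 times. These 5 had a median joint signal of 30.9, against 20.9 in the other 21. The 5 include the 2 strongest regions, in which the repeat was described first, so this difference is partly built in. The remaining ones of the 5 had 30.9, 24.1 and 7.98. Of the 5, 4 were higher in replicate 2, as were 18 of all 26 lin-29 regions, so this balance was not particular to the repeats. The exception, 3758 bp into the gene, had a joint signal of 7.98, with 18.5 in replicate 1 and 8.26 in replicate 2. At least 5 copies were found in 564 of all ranked regions (0.477%), in 1 of the 321 joint regions and in no other region of the 7 genes. How reads were assigned within such repeats is unstated, and its part in these signals was not tested.

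The Period-related gene lin-42 (WBGene00018572, chrII:1233236-1252359, minus strand, 19.1 kb, 7 transcripts) had the strongest region among the 5 of the 7 genes that lie outside the raised segment. Its 34 ranked regions ran from 3.46 to 52.7 with a median of 27.0, at the 96.7th percentile of genes with at least 10 ranked regions. The strongest, 500 bp upstream of an internal start shared by 2 transcripts, had a joint signal of 52.7, with 23.7 in replicate 1 and 17.5 in replicate 2 and a rate of 0.133 in the joint ranking. The second, in a coding exon with its summit 5 bp downstream of an internal transcript start, had 48.5, with 21.2 and 22.9, and a rate of 0.0400. Both aligned to 1 place. The strongest sequence is shown because it has the highest signal among the 5 genes outside the segment and holds GGCCTA, in capitals. It lies upstream of the internal start and does not reach it, at chrII:1244387-1244682 on the plus strand.
lin-42 region in intron: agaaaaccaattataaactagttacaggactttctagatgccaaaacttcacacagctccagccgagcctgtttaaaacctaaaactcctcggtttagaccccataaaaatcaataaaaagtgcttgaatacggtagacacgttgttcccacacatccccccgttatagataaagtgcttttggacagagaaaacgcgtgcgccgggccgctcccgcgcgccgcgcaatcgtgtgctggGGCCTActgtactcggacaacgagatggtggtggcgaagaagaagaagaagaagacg

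At 48.6% and 53.0% G or C these lin-42 regions lay at the 94.9th and 98.6th percentiles of ranked regions. Neither was in any list.

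The RNA-binding pair of the pathway showed no listed region. The gene lin-28 (WBGene00003014, chrI:8407630-8410804, minus strand) is the shortest of the 7, at 3.17 kb, and had 5 ranked regions with a median of 21.9. The strongest, in an intron 767 bp into the gene and 117 bp upstream of an internal start, had a joint signal of 40.8, with 17.1 in replicate 1 and 24.0 in replicate 2 and a rate of 0.234. The region 442 bp upstream of the gene had 26.5, gave 28 alignments in the genome and had no match in the ranking of the replicates. At lin-41 (WBGene00003026, chrI:9334800-9342496, minus strand, 7.70 kb) the 14 ranked regions ran from 4.81 to 37.7 with a median of 16.8, below the median of all ranked regions. None had its summit upstream of the 5′ end. The strongest of lin-41, in a coding exon 2182 bp into the gene, had 37.7, with 14.2 and 17.4, and the second, in an intron, had 37.6, with 13.4 and 22.5.

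The order of the gene medians was lin-14, lin-42, daf-12, lin-29, lin-28, lin-41 and hbl-1, and no test was made of neighbours in it. In the replicates' own rankings, the median of a gene over that of the whole ranking was 1.85 and 1.499 at lin-14, 1.42 and 1.43 at daf-12 and 1.34 and 1.10 at lin-42, in replicates 1 and 2. For lin-29 these ratios were 0.918 and 1.09 and for lin-41 1.06 and 1.27. For lin-28 and hbl-1 they were 0.659 and 1.37, and 0.739 and 1.398, resting on 2 or 3 regions in replicate 2. In both replicates lin-14 and daf-12 had the 2 highest ratios, and both genes lie in the raised segment. Matched signals in the segment had a median of 14.8 against 10.3 over autosomes in replicate 1, and 17.5 against 11.9 in replicate 2. Ranked regions per kb of window were above the genome value of 1.18 at all 7 genes, though lin-28 was close to it. The genome value takes in sequence between genes, and the windows of other genes were not compared. Overlapping regions were counted separately, and merging them gave 140 regions in place of 172. The density per kb of window was 1.20 at lin-28, 1.35 at daf-12, 1.39 at lin-29, 1.61 at lin-41, 1.69 at lin-42, 1.78 at lin-14 and 1.81 at hbl-1.

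Further genes of the pathway were taken from 6 lists of 64 names, of which 63 matched the gene models. The name without a match was that of the microRNA gene let-7, which is therefore not covered. Across them, 3 of 63 genes had a joint-list region in the window, where 1.29% of all protein-coding genes had one. In the conservative list and the lists of replicates 1 and 2 the count was 0, where the shares of all protein-coding genes were 0.791%, 0.275% and 0.305%. The median over the 63 genes of the strongest signal was 37.8, against 31.0 for the 18721 protein-coding genes with a ranked region. Neither comparison was matched for gene length or number of ranked regions. Of the 3 genes, lit-1 is 22414 bp long and din-1 18840 bp, and 8.08% of protein-coding genes of at least 20 kb had a joint-list region. The 63 also include 4 microRNA genes, set here against protein-coding genes. No list gene lay in the raised segment. Among hormone synthesis and DAF-12 cofactor genes, 1 of 9 had a joint region: din-1, which encodes a corepressor partner of DAF-12, with a joint signal of 48.9, 32.6 in replicate 1 and 21.5 in replicate 2, in an exon annotated as 5′ UTR. Among 13 seam cell and larval-to-adult genes, 2 had one. The Runx factor gene rnt-1 had 67.4, with 22.5 and 32.5, at 749 bp upstream, and lit-1, a kinase gene of Wnt signalling, had 68.3, with 23.8 and 49.0, in a coding exon.

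In the other lists no gene had a listed region. The strongest of 4 timing microRNA genes was mir-84, with 46.6 in the joint ranking, 26.2 in replicate 1 and 15.4 in replicate 2, at a summit 16 bp upstream. Among 23 timing regulators and cofactors the strongest was nhl-2, a TRIM-NHL cofactor of microRNA complexes, with 69.1, 26.0 and 42.6 at 832 bp upstream, a joint signal close to that of the upstream daf-12 region. The highest of 12 dauer signalling genes was daf-5 (59.6, 35.1 and 31.0, intronic), and of the hormone synthesis and cofactor genes ncr-2 (51.2, 12.5 and 29.8), a sterol transport gene. The nuclear receptor genes closest to daf-12, nhr-8 and nhr-48, reached 40.9 and 40.8.

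The joint-list regions most like the strongest of daf-12 were found by their distance in log2 signal over the joint list and the 2 replicates, a likeness over 3 values. The nearest lay at trpp-9 (distance 0.10; joint signal 84.7, replicates 21.6 and 53.5), also in the raised segment. Next came a region on chromosome II in the window of no protein-coding gene (distance 0.23; 84.6, 19.3 and 56.2). Those at Y51F10.4, dpf-3 and W02H3.1 followed at distances of 0.24 to 0.25, the last of them again in the segment.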

How the data were processed

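Per the labels, chromatin was fragmented by sonication, and 2 biological replicates of 1 group were sequenced. The authors deposited 8 region lists on ce11, ranked and thresholded by IDR, for each replicate, for the replicates against each other (conservative) and for a joint ranking. Which aligner and which peak caller made them was not given in any source used here. The deposited signal is each region's peak-calling value, whose scale is unstated. The deposited score rises with reproducibility, and the lowest in the joint list was 830. IDR values printed here were computed from the −log10 of global IDR that the authors deposited in the ranked lists. Read counts were not analysed, so depth is unknown and intervals are absent.

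Replicate signals came from the ranking of the replicates, which has 114284 regions. Its 2 inputs were identified by 80659 and 61427 records identical to those in the own files of replicates 1 and 2. The other records had no identical entry, so a replicate signal given here can be absent from that replicate's own ranking. At hbl-1 the strongest region had 24.0 in replicate 1, where the highest in that replicate's own ranking was 15.0. The 2 input signal columns of the joint ranking carry no sample name and were not used. Of the joint regions, 100728 recurred in the ranking of the replicates. No scaling between replicates was applied. Percentiles are within a ranking. Genes were those of Ensembl release 115 (WBcel235, the assembly of ce11), coordinates are 1-based, and sequences came from the RefSeq assembly. The raised segment was the longest run of 100 kb bins, gaps of 1 bin allowed, with at least 20 unlisted regions and a median more than 3 scaled median absolute deviations above that of all bins. Alignments were made with blastn 2.17.0; other steps used Python 3.11.15, NumPy 2.4.6, pandas 2.3.3 and matplotlib 3.10.9. The window rule and the segment finder were tested on simulated data.

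The members and gene lists were chosen with earlier results of these data known, so no test was made. Named were all members, their 2 strongest and all listed regions, list genes with a listed region or the highest signal of a list, and the 5 joint regions most like the strongest of daf-12. Alternatives covered the window, the list and threshold, each replicate alone, and the set in which regions were ranked.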

Additional observations from a re-analysis of the deposited data

How the results depend on the processing

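The count of 1 timing gene with a listed region held in number but not in identity. It was daf-12 with 500 or 2000 bp upstream, with promoters of the gene or of any transcript alone, with any overlap in place of the summit, and in the joint ranking at an IDR of 0.01 without further filtering. It was lin-14 in the conservative list. Each replicate alone also gave 1 gene, lin-14 without replicate 2 and daf-12 without replicate 1. At an IDR of 0.05 in the joint ranking the count was 3 (daf-12, lin-14 and lin-42), and at 0.001 it was 0, where 4.3% and 0.275% of protein-coding genes were called. The median percentile of the strongest regions of the 7 genes was 95.7. These regions were picked by joint signal, and leaving out a replicate read the percentile of the same regions in the other. The medians were then 93.7 to 94.7, but single genes changed more. Without replicate 1, lin-42 went from 99.1 to 80.4, lin-41 from 93.4 to 79.9, hbl-1 from 92.9 to 87.4 and lin-14 from 99.9 to 98.7. In the same setting lin-29 rose from 90.6 to 98.6, lin-28 was at 94.7 and daf-12 stayed at 99.9. Without replicate 2, lin-41 went to 72.5, lin-29 to 72.0, lin-28 from 95.7 to 83.2, lin-42 to 95.7 and daf-12 from 99.9 to 93.7. In that setting hbl-1 rose to 96.0 and lin-14 was at 99.96. A gene could hold another region that stood higher in the replicate kept. Such a daf-12 region was at the 99.9th percentile in replicate 1, and such a lin-42 region at the 99.3rd in replicate 2. The median signal of the strongest regions, 40.8, became 28.8 in promoters alone, over the 6 genes with a value. The narrower window holds fewer regions, and the part of this in the change was not tested. The total of 172 ranked regions became 140 with overlapping regions merged and 167 in the ranking of the replicates or with 500 bp upstream. With 1 group and 2 replicates, spread can be read only as the pair of values, and depth is unknown.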
